A study of Mus musculus with 12 samples.

Results

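A set of 35 genes of the PI3K (phosphoinositide kinase), AKT, mTOR and FOXO pathway was followed in sorted mouse T follicular helper cells. They were picked by symbol from the 25793 gene entries of the count file, and all 35 symbols were found there. By role they comprise 4 PI3K catalytic subunits (*Pik3cd*, *Pik3ca*, *Pik3cb*, *Pik3cg*), 4 regulatory subunits or adaptors (*Pik3r1*, *Pik3r2*, *Pik3r5*, *Pik3ap1*) and 5 genes that restrain the pathway (*Pik3ip1*, *Inpp5d*, *Inpp4a*, *Inpp4b*, *Phlpp1*). A further 4 encode PDK1, AKT or GSK3 kinases (*Pdpk1*, *Akt1*, *Akt2*, *Gsk3a*), and 4 encode mTOR or its partners (*Mtor*, *Rptor*, *Rictor*, *Mlst8*). The remainder are 8 genes that act on mTOR complex 1 from upstream (*Tsc1*, *Tsc2*, *Rheb*, *Ddit4*, *Sesn1*, *Sesn3*, *Prkaa1*, *Stk11*), 3 mTOR complex 1 targets (*Rps6kb1*, *Eif4ebp1*, *Eif4ebp2*) and 3 forkhead factors (*Foxo1*, *Foxo3*, *Foxp1*). Of the 35 genes, 31 passed the filter on low counts, among 7542 genes that passed it in all.

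The study compared 6 wild-type (WT, Pdcd1+/+) with 6 Pdcd1 knock-in (KI, Pdcd1KI/KI) libraries of CD4+ OT-II T cells, whose receptor recognizes an ovalbumin peptide, on the C57BL/6 background. All 12 libraries share the rest of the design. The T cells were transduced to express GFP and transferred into B6 recipients with dsRed-expressing MD4 B cells, which bind hen egg lysozyme, and the recipients received HEL-OVA with LPS and alum. On day 5, CXCR5-high cells were sorted from lymph node in pools of 100 to 200, straight into lysis buffer, and their polyadenylated RNA was amplified by a method adapted from single-cell sequencing. What the KI allele alters in *Pdcd1*, which encodes the inhibitory receptor PD-1, is not given in the sources used here. Each title also carries a first number, 1 or 2, and a second number from 1 to 3, so every combination of genotype and first number has 3 libraries. The meaning of these numbers is not given in the sources used here, and libraries are called below by genotype and both numbers (WT 1-1 to KI 2-3), or as libraries numbered 1 or numbered 2. Nothing states that the libraries came from separate animals or cultures, so the p-values measure only the spread between these libraries, which may be technical.

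Class I PI3K converts a membrane lipid into a docking signal that brings PDK1 and AKT together, and lipid phosphatases remove that signal. Active AKT phosphorylates FOXO factors, which sends them out of the nucleus, and relieves the TSC brake on RHEB so that mTOR complex 1 can promote protein synthesis through S6 kinase and the 4E-BP proteins. In T cells the antigen receptor, CD28 and ICOS feed PI3K, PD-1 opposes it through recruited phosphatases, and FOXO1 maintains genes of naive and recirculating cells and limits follicular helper differentiation. Much of this signalling runs through phosphorylation and localization of proteins, which RNA counts do not read.

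Counts assigned to genes ran from 717506 to 1801504 per library, with a median of 1411039, and 10331 to 11115 genes had at least 1 count. *Pdcd1* ran from 166 to 523 CPM in WT and from 21.5 to 129.5 in KI, so the genotype labels separated on this gene, which was also lower in libraries numbered 2 than numbered 1 (log2 fold change -1.56, SE 0.22, adjusted p = 8.38e-05 by edgeR). CPM are counts scaled to the library's total over the tested genes after TMM normalization, which adjusts for differences in library composition. CD4 T cell markers were present in all libraries, with a summed level of 4155 to 5787 CPM, and the 10 follicular helper markers, *Cxcr5* among them, all had counts. WT 1-3 had the fewest counts and the largest share of reads aligned to several places, 43.8% against 26.7% in the library with the smallest share. In these pools of cells, fewer cells of a type and less RNA per cell cannot be told apart.

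Levels of different genes were compared per transcript length, in the deposited FPKM (fragments scaled by transcript length and depth). *Akt1*, the widely expressed AKT kinase, had the highest level of the 35 genes, 62.7 FPKM ± 15.6 (SD, n = 12), and was above *Foxo1*, the next in order, in 11 of 12 libraries. *Foxo1* had 38.8 FPKM ± 7.49 and *Akt2* 36.5 ± 9.49, and *Foxo1* was the higher of these in only 7 of 12 libraries, so their order is not separated from the spread. The forkhead genes divided: *Foxp1*, a repressor that keeps T cells quiescent, had 20.1 FPKM ± 5.84, below *Foxo1* in 12 of 12 libraries, while *Foxo3* had counts in only 1 library.

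Among the catalytic subunits, *Pik3cd*, which encodes the p110δ isoform typical of lymphocytes, stood above the others in 12 of 12 libraries, with 27.2 FPKM ± 7.94. The gene *Pik3cg* (p110γ, which acts below G protein-coupled receptors) had 4.51 FPKM ± 1.95 and *Pik3ca* (p110α) 4.35 ± 1.91, and each was the higher of this pair in 6 of 12 libraries. *Pik3cb* (p110β) had 0.216 FPKM. Of the regulatory genes, *Pik3r2* (p85β) had 3.89 FPKM ± 2.15 and *Pik3r1* (p85α) 3.17 ± 1.57, with *Pik3r2* higher in 8 of 12 libraries. *Pik3r5*, the p101 partner of p110γ, had 1.25 FPKM ± 0.681. The highest of the restraint genes was *Pik3ip1*, a membrane inhibitor of PI3K, at 12.2 FPKM ± 4.57. The lipid phosphatase genes *Inpp5d* (SHIP1), *Inpp4a* and *Inpp4b* lay close together at 5.96, 5.87 and 5.28 FPKM, with neighbours in that order exchanging rank in 5 and 6 of 12 libraries. The AKT phosphatase gene *Phlpp1* had 1.29 FPKM ± 1.15.

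The core of the mTOR complexes was at low RNA levels. *Mtor* had 2.54 FPKM ± 1.32, *Rptor*, the scaffold of complex 1, 2.38 ± 1.12, *Mlst8* 1.85 ± 1.21 and *Rictor*, the scaffold of complex 2, 1.22 ± 0.493. *Mtor* exceeded *Rptor* in only 5 of 12 libraries although its mean was higher. Most genes upstream of the complex were higher on the same scale, led by *Rheb*, the GTPase that activates complex 1, at 26.3 FPKM ± 11.7. The stress-induced inhibitors *Sesn3*, *Sesn1* and *Ddit4* had 20.9, 15.5 and 11.6 FPKM, and *Stk11* (LKB1, the kinase that activates AMPK) had 18.2. *Tsc2* had 8.16 FPKM ± 4.83, *Prkaa1*, the AMPK catalytic subunit α1, 3.02 ± 2.44 and *Tsc1*, the partner of TSC2, 1.41 ± 0.879. The translational repressors *Eif4ebp2* and *Eif4ebp1* had 30.6 ± 10.1 and 25.2 ± 11.2 FPKM, with *Eif4ebp2* higher in 9 of 12 libraries, and the S6 kinase gene *Rps6kb1* had 4.03 ± 2.31. *Pdpk1* and *Gsk3a*, a kinase that AKT inhibits, had 6.64 ± 2.96 and 5.07 ± 2.45.

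**Figure D1:**
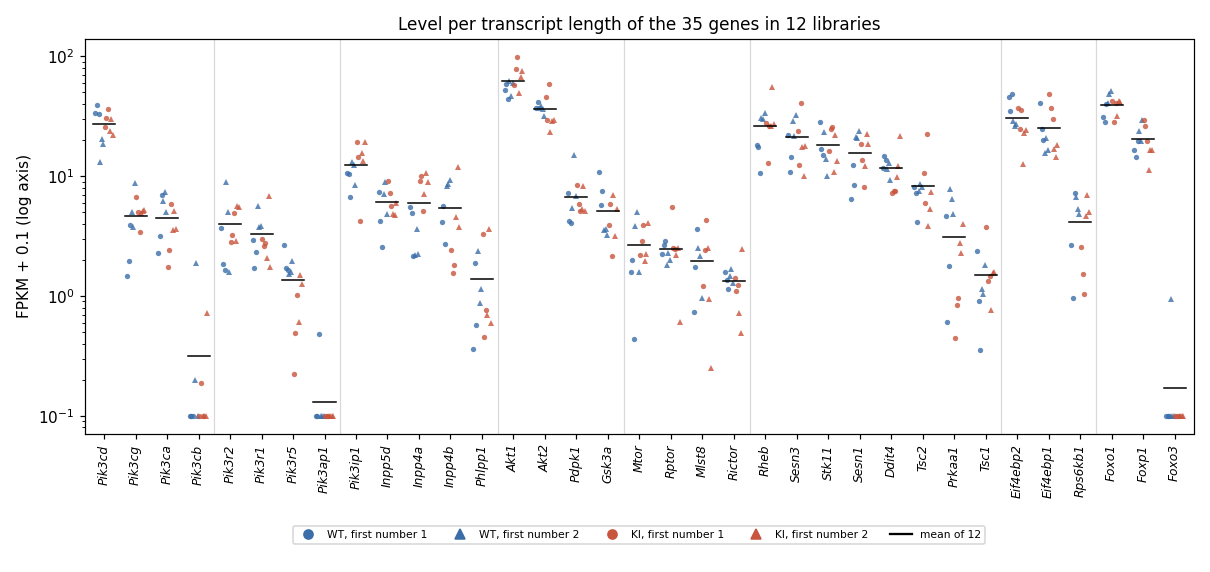
Deposited FPKM plus 0.1 on a log axis for the 35 genes, grouped by role and ordered by mean within a role. Points are the 12 libraries (blue WT, red KI, circles numbered 1, triangles numbered 2) and bars are means: *Akt1*, *Foxo1* and *Akt2* are highest, and most libraries of *Pik3cb*, *Pik3ap1* and *Foxo3* lie at 0.

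The filter on low counts removed 4 genes. *Foxo3* had 5 counts in WT 2-1 and 0 in the other 11 libraries, and *Pik3ap1*, an adaptor best known from B cells, had 1 count in all. A count of 0 allows up to 3 counts, which was 1.46 to 5.37 CPM in these libraries, so a count of 0 does not exclude levels up to that bound (this limit covers counting error only). *Pik3cb* had 28 counts spread over 4 libraries, 20 of them in WT 2-2. *Mlst8*, a shared subunit of both mTOR complexes, had 91 counts over 11 libraries, 6.15 CPM ± 3.87 in WT and 6.32 ± 5.83 in KI. Two-sided exact permutation tests of KI against WT gave p = 1 for *Foxo3* and *Pik3ap1*, 0.727 for *Pik3cb* and 0.690 for *Mlst8*, each 1 after adjustment over these 4 genes.

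FOXO factors bind DNA through a short core, GTAAACA, and members of the pathway are themselves known FOXO targets, so the core was searched on both strands of RefSeq promoter windows. Each window runs from 250 bases before to 50 after an annotated start, 300 bases in all, on the GRCm38.p6 table. Of the 35 genes, 34 matched that table, with 48 windows, and 4 windows (8.33%) held the core, each in a different gene. Over all promoters the share was 3.65% of 32851 windows. The 4 sites are shown because they are the only promoter matches among these genes; capitals mark the core or its reverse complement (TGTTTAC), and each 30-base stretch is read 5′ to 3′ on the gene's strand. Each whole window matched the NCBIM37 (mm9) genome at a single place, and the positions are given on that build.
Sesn1: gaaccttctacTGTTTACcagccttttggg
Stk11: ggcgcagggcgGTAAACAagatggcggcgg
Pik3cg: tttttcctaaaGTAAACAaatgatcctcct
Akt1: atctaccctctTGTTTACactcctggtgaa
The *Sesn1* site, chr10:41530391-41530420 on the + strand, and the *Stk11* site, chr10:79578545-79578574 on the + strand, overlap an annotated exon of their gene just after its start. The *Pik3cg* site, chr12:32893409-32893438 on the − strand, also lies in an annotated exon of its gene. The *Akt1* site, chr12:113913238-113913267 on the − strand, lies upstream of the gene, outside annotated genes. A match describes these letters only. Some of the 35 genes share annotated exon sequence with a neighbour on NCBIM37: *Foxp1* overlaps *Eif4e3* on the same strand, and *Tsc2*, *Mlst8*, *Rps6kb1*, *Stk11*, *Gsk3a*, *Pik3r1*, *Pik3ip1*, *Rptor* and *Foxo1* overlap a gene on the opposite strand, so their counts are less certain. In neither main comparison below did the 4 genes pass the test, and their log2 differences between KI and WT were -0.03 for *Sesn1*, 0.42 for *Stk11*, 0.27 for *Pik3cg* and 0.36 for *Akt1*.

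The stated comparison of the series, KI against WT, asks how the *Pdcd1* allele affects the transcriptome of these cells. None of the 31 tested genes passed edgeR's quasi-likelihood test (Benjamini-Hochberg adjusted p under 0.05), against 0.0265% of all 7542 genes, which is 2 genes. An unadjusted p under 0.05 was reached by *Inpp4a*, higher in KI, and *Pik3r5*, lower in KI, which is 6.45% of the 31 genes against 5.4% of all tested genes. limma-voom and DESeq2 also passed 0 of these genes, each with 3 at an unadjusted p under 0.05 (9.68%, against 7.08% and 5.97% of all genes they tested). The median log2 fold change of the 31 genes was -0.03, with 14 above and 17 below 0, beside 0.02 over all tested genes. Standard errors of the single genes ran from 0.19 to 0.65 on the log2 scale. By role, 4 of 5 restraint genes lay above 0 and 2 of 3 regulatory genes below it, and none of these differences passed the test.

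**Figure D2:**
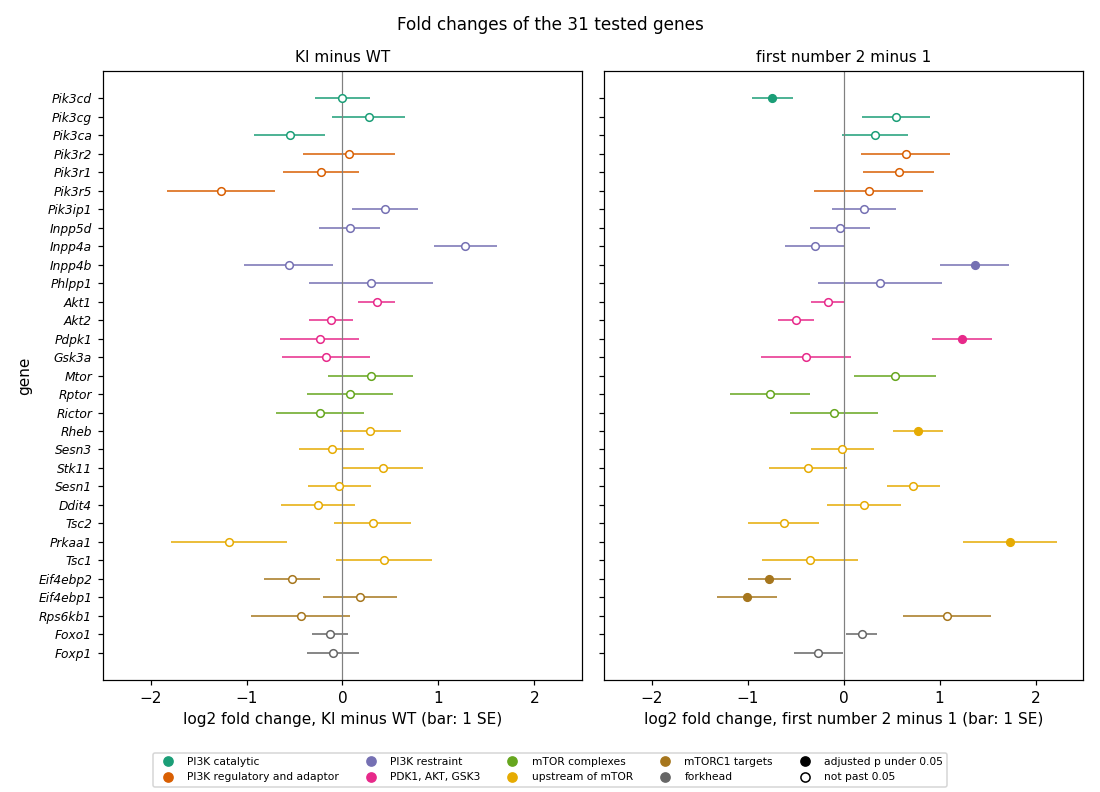
Log2 fold changes of the 31 tested genes, KI minus WT on the left and libraries numbered 2 minus numbered 1 on the right, with bars of 1 SE, coloured by role. Filled points pass an adjusted p of 0.05: there are 0 on the left and 7 on the right.

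*Inpp4a*, a lipid phosphatase that degrades a product of PI3K (chr1:37356710-37467581, + strand, NCBIM37), had the smallest p of the 31 genes. Its lowest, median and highest levels were 15.7, 24.0 and 41.3 CPM in WT and 39.2, 68.6 and 82.4 CPM in KI. The groups overlapped only in that KI 1-3, at 39.2, lay below WT 1-1 and WT 1-2. *Inpp4a* differed by 1.28 on the log2 scale (SE 0.33), with an unadjusted p of 0.000905 and an adjusted p of 0.525 by edgeR's quasi-likelihood test. Within the libraries numbered 1 the log2 difference was 0.80 and within those numbered 2 it was 1.83. The related phosphatase gene *Inpp4b* pointed the other way, at -0.56 (SE 0.46, adjusted p = 0.938).

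*Pik3r5* (chr11:68245623-68311351, + strand) was the 1 gene of the 31 whose WT and KI libraries did not overlap, where 0.371% of all tested genes had no overlap. It ran from 8.16 to 14.7 CPM in WT, with a median of 10.6, and from 0.635 to 7.31 CPM in KI, with a median of 4.62. These levels rest on 7 to 21 counts per WT library and 1 to 15 per KI library. On the log2 scale the difference was -1.27 (SE 0.56, adjusted p = 0.917), with -2.12 among libraries numbered 1 and -0.59 among those numbered 2. The lowest value, 0.635 CPM in KI 1-1, is a single count. The other regulatory genes differed by less than their errors, with *Pik3r1* at -0.23 (SE 0.39) and *Pik3r2* at 0.07 (SE 0.48).

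Among the catalytic genes, *Pik3ca* ran from 25.8 to 115 CPM in WT, with a median of 65.1, and from 17.8 to 70.8 in KI, with a median of 49.0. The groups overlapped broadly, and the log2 fold change was -0.55 (SE 0.37, adjusted p = 0.938). *Pik3cd* had 181 CPM ± 88.5 in WT and 179.8 ± 35.7 in KI (SD, n = 6 each), so its means were nearly equal while WT spread further. *Pik3cg* had a log2 fold change of 0.27 (SE 0.38).

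*Akt1* ran from 163 to 235 CPM in WT, with a median of 212, and from 183 to 360.0 CPM in KI, with a median of 250.3. KI 1-2, KI 1-3 and KI 2-3 lay above every WT library and the other 3 lay within the WT range. The log2 fold change was 0.36 (SE 0.20, adjusted p = 0.919), and it was 0.41 and 0.29 within the libraries numbered 1 and 2. *Akt2*, *Pdpk1* and *Gsk3a* had log2 fold changes of -0.12, -0.24 and -0.17, each smaller than its SE of 0.23, 0.42 and 0.46.

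*Prkaa1*, whose kinase senses low energy and restrains mTOR complex 1, ran from 3.54 to 47.1 CPM in WT, with a median of 28.3, and from 1.91 to 24.9 CPM in KI, with a median of 9.81. The groups overlapped because WT 1-2 and WT 1-3, at 3.54 and 14.3 CPM, lay among the KI values. For *Prkaa1* the log2 fold change was -1.18 (SE 0.61, adjusted p = 0.919), with -1.90 and -0.94 within the libraries numbered 1 and 2. The other 7 upstream genes had log2 fold changes between -0.25 (*Ddit4*) and 0.43 (*Tsc1*). Of the mTOR complex genes, *Mtor*, *Rptor* and *Rictor* had 0.29, 0.08 and -0.23, all within 1 SE of 0.

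*Eif4ebp2*, which blocks cap-dependent translation until mTOR complex 1 phosphorylates it, ran from 60.2 to 154 CPM in WT, with a median of 79.5, and from 37.4 to 87.3 CPM in KI, with a median of 60.7. The ranges overlapped, and 3 KI libraries lay below every WT library. On the log2 scale the difference was -0.52 (SE 0.29, adjusted p = 0.919). *Eif4ebp1* and *Rps6kb1* had 0.18 (SE 0.39) and -0.44 (SE 0.51). The forkhead genes were close to equal: *Foxo1* had 315 CPM ± 73.4 in WT and 288 ± 34.3 in KI, and *Foxp1* 64.9 ± 16.4 and 60.4 ± 17.5 (SD, n = 6 each). Their log2 fold changes were -0.13 (SE 0.19) and -0.10 (SE 0.27), and the SE of *Foxo1* was the smallest of the 31 genes.

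**Figure D3:**
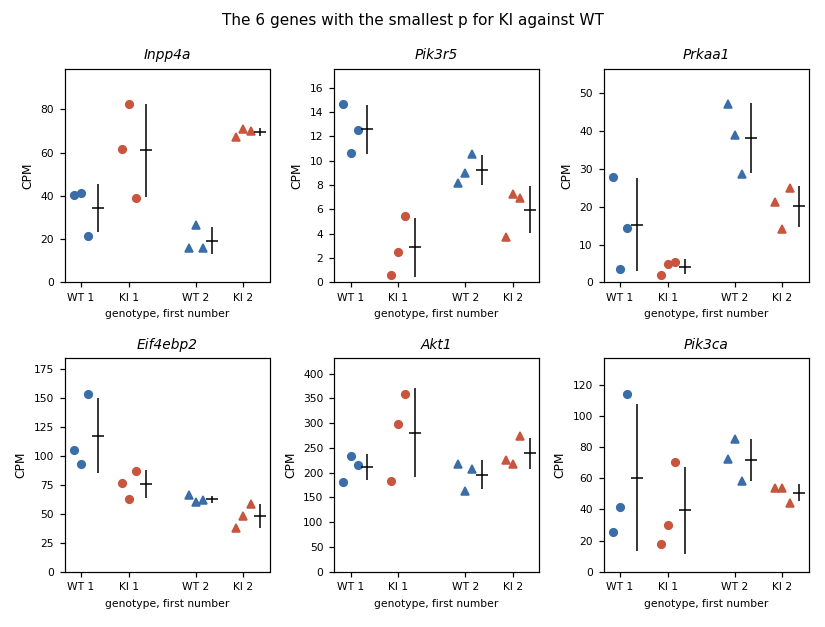
CPM per library for the 6 genes with the smallest p in KI against WT, by genotype and first title number, with the mean and SD of each 3 libraries at the right of the points. *Inpp4a* is higher in KI libraries numbered 2 than in every WT library, and *Pik3r5* is lower in all 6 KI libraries than in the WT libraries.

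Markers of other cells are given beside these results. The summed level of the B cell list was 206 to 470 CPM in WT and 153 to 259 in KI, 9 of 10 listed genes in the file had counts, *Pax5* was at 0 in all libraries, and 6 of 7 tested genes had negative fold changes in KI, of which 0 passed the test. Of these 7 genes, 4 had an unadjusted p under 0.05 in edgeR (57.1%, against 5.4% of all tested genes). The median log2 fold change of the 7 was -1.32. Markers of cytotoxic lymphocytes summed to 86.1 to 956 CPM in WT and 88.3 to 516 in KI. All 5 tested cytotoxic genes had negative fold changes in KI (median -1.26 on the log2 scale), again with 0 past the test and 1 at an unadjusted p under 0.05 (20%). Among libraries numbered 1 their sums overlapped, 86.1 to 301 CPM in WT and 88.3 to 143 in KI, and among those numbered 2 they did not, 650.2 to 956 in WT and 286 to 516 in KI. Myeloid markers summed to 2.25 to 217 CPM in WT (median 10.4) and 1.24 to 47.1 in KI (median 24.0). In libraries numbered 1 they summed to 9.44 to 217 CPM in WT, with a median of 12.6, and 1.24 to 14.4 in KI. In those numbered 2 the genotypes did not overlap, with 2.25 to 11.3 CPM in WT and 33.7 to 47.1 in KI. Counts were found for 7 of 12 myeloid genes, with *Itgax*, *Cd14*, *Zbtb46*, *Fcgr1* and *S100a8* at 0, and none of the 12 was tested. *Pik3ap1*, which B cells express, had the 1 count given above. The part of these cells in the differences between genotypes was not tested.

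More genes differed by first title number than by genotype. Of the 31 pathway genes, 7 (22.6%) differed between libraries numbered 2 and numbered 1 in a fit with genotype as a term, where 16% of all tested genes did. Of these, 4 were higher in libraries numbered 2 (12.9%, against 8.47% of all genes) and 3 were lower (9.68%, against 7.54%). The median log2 fold change was 0.19 over the 31 genes and 0.01 over all tested genes. In 3 of the 31 genes the 6 libraries of each number did not overlap, where 6.48% of all tested genes did not. Within WT libraries alone 1 of the 31 genes passed the test in edgeR (3.23%, against 5.01% of all genes tested there), with 5 at an unadjusted p under 0.05 (16.1%, against 21%). Within KI libraries alone 0 of the 29 genes tested there passed (against 4.66% of all genes), with 7 at an unadjusted p under 0.05 (24.1%, against 21.4%). What the first number stands for, and whatever went with it, cannot be told apart.

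The genes higher in libraries numbered 2 were an activating kinase, a lipid phosphatase, an energy sensor and a GTPase. *Pdpk1* (chr17:24210647-24287891, − strand), whose kinase phosphorylates the activation loop of AKT, had lowest, median and highest levels of 15.8, 27.6 and 36.6 CPM in libraries numbered 1 and 36.7, 64.1 and 98.4 in those numbered 2. The ranges met without overlapping, and the log2 fold change was 1.24 (SE 0.31, adjusted p = 0.00949). *Prkaa1* (chr15:5093861-5131899, + strand) ran from 1.91 to 27.9 CPM, with a median of 5.23, and from 14.1 to 47.1, with a median of 26.8. WT 1-1, at 27.9 CPM, was the library numbered 1 that reached furthest into the other range. The log2 fold change was 1.73 (SE 0.49, adjusted p = 0.0183). *Pdpk1* and *Prkaa1* kept their calls when each of the 12 libraries was left out in turn. In the deposited FPKM, however, the ranges of *Pdpk1* overlapped. They were 3.97 to 8.39 FPKM in libraries numbered 1 and 5.01 to 14.8 FPKM in those numbered 2.

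*Inpp4b* (chr8:83866455-84648935, + strand), a phosphatase that acts on the same lipid as INPP4A, ran from 10.3 to 36.6 CPM in libraries numbered 1, with a median of 15.6, and from 24.9 to 63.3 in those numbered 2, with a median of 47.1. The lowest values were the 3 KI libraries numbered 1, between 10.3 and 11.4 CPM. For *Inpp4b* the log2 fold change was 1.37 (SE 0.36, adjusted p = 0.0122), and without KI 2-2, the highest library, it was 1.09 with an adjusted p of 0.0518. *Rheb* (chr5:24308641-24348442, − strand) ran from 28.5 to 53.6 CPM, with a median of 37.6, and from 54.7 to 100.4, with a median of 62.6, without overlap. Its log2 fold change was 0.78 (SE 0.26, adjusted p = 0.0442). This call was the weakest of the 7, since it held only without KI 1-1 and without KI 2-3, and the adjusted p rose to as much as 0.142 (without KI 2-2) in the other 10 fits.

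The genes lower in libraries numbered 2 were both 4E-BP translational repressors and the lymphocyte catalytic subunit. *Eif4ebp1* (chr8:28370799-28386128, + strand) ran from 34.0 to 52.7 CPM in libraries numbered 1, with a median of 43.4, and from 16.1 to 26.2 in those numbered 2, with a median of 21.2, without overlap. On the log2 scale the difference was -1.01 (SE 0.32, adjusted p = 0.0326), and the call was lost without WT 1-1, WT 2-1, WT 2-3, KI 1-1, KI 1-2 or KI 2-2, with an adjusted p of up to 0.0790. *Eif4ebp2* (chr10:60895245-60915417, − strand) ran from 63.2 to 154 CPM, with a median of 90.2, and from 37.4 to 65.9, with a median of 59.2. WT 2-1 was the library numbered 2 that overlapped, and the log2 fold change was -0.78 (SE 0.22, adjusted p = 0.0203), or -0.66 with an adjusted p of 0.0592 without WT 1-3.

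*Pik3cd* (chr4:149023277-149076680, − strand) ran from 142 to 285 CPM in libraries numbered 1, with a median of 219, and from 81.6 to 188 in those numbered 2, with a median of 132. The log2 fold change was -0.74 (SE 0.21, adjusted p = 0.0207). The call was lost without WT 1-2, WT 2-1 or WT 2-3, with an adjusted p of up to 0.0636. Over the 31 genes, 4 to 7 passed the test when single libraries were left out (12.9% to 22.6%, against 9.75% to 16.1% of all genes). The count was 4 without WT 2-1, without WT 2-3 or without KI 2-2. In those fits 13.7%, 11.4% and 9.75% of all genes passed, in that order.

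**Figure D4:**
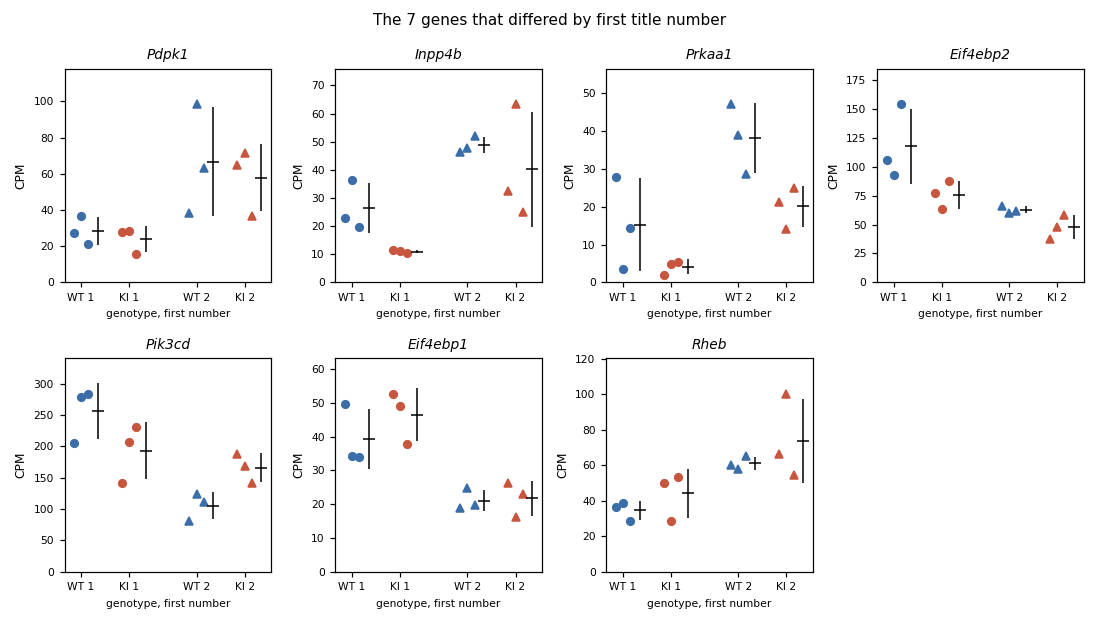
CPM per library for the 7 genes that differed between libraries numbered 1 and numbered 2, by genotype and first number, with the mean and SD of each 3 libraries at the right of the points. *Pdpk1*, *Rheb* and *Eif4ebp1* show no overlap between the 6 libraries of each number, and *Pik3cd* is lowest in WT libraries numbered 2.

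The remaining 24 tested genes did not pass. *Akt2* and *Sesn1* came closest, at -0.50 (SE 0.19, adjusted p = 0.0733) and 0.72 (SE 0.28, adjusted p = 0.0763). *Rps6kb1* had a log2 fold change of 1.07 (SE 0.46, adjusted p = 0.115), with libraries numbered 1 between 6.87 and 69.8 CPM and libraries numbered 2 between 33.2 and 47.1. WT 1-3 alone held the high value among those numbered 1. *Foxo1* and *Foxp1* had 0.19 (SE 0.16) and -0.26 (SE 0.26).

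Other measures moved with the first number too. Genes with at least 1 count numbered 10331 to 10701 in libraries numbered 1 and 10782 to 11115 in those numbered 2. Markers of cytotoxic lymphocytes summed to 86.1 to 301 CPM in libraries numbered 1 and 286 to 956 in those numbered 2. Of these 12 genes, 11 had counts and *Ncr1* was at 0. Of the 5 tested, 4 passed the test as higher in libraries numbered 2 (80%, against 8.47% of all tested genes). Of the 10 follicular helper markers, 7 differed by first number (70%, against 16% of all tested genes): *Slamf6*, *Btla*, *Icos* and *Sh2d1a* were higher in libraries numbered 2, and *Pdcd1*, *Cxcr5* and *Tox2* were lower. Their summed level was 2082 to 3079 CPM in libraries numbered 1 and 2468 to 3495 in those numbered 2. The longest annotated transcript had a median of 3665 bases over all genes higher in libraries numbered 2, 2552 bases over those lower and 3007 bases over those not called. Among the pathway genes it was 5070.5 bases for the 4 higher, 1786 bases for the 3 lower and 5541.5 bases for the 24 not called. The part of these measures in the differences was not tested.

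Whether the genotype difference itself differed between the first numbers was tested as an interaction. No gene passed, 0% of the 7542, and 0 of the 31 pathway genes did; at an unadjusted p under 0.05 the shares were 7.21% of all genes and 6.45% (2 genes) of the 31. limma-voom passed 0 genes, with 2 of the 31 at an unadjusted p under 0.05 (6.45%, against 6.78% of all genes it tested). DESeq2 passed 7 genes, none of them among the 31. Of the 31 genes, 3 had an unadjusted p under 0.05 in DESeq2 (9.68%, against 8.28% of all genes it tested). The gene with the smallest p of the 31 was *Pik3cd*, at 1.06 (SE 0.36, unadjusted p = 0.00764, adjusted p = 0.470). Among libraries numbered 1 it had 206, 279.5 and 285 CPM in WT and 142, 206 and 231 in KI. Among libraries numbered 2 it had 81.6, 124 and 111 CPM in WT and 188, 169.6 and 141 in KI. All 3 KI libraries numbered 2 lay above the 3 WT libraries of that number, and among libraries numbered 1 the genotypes overlapped with KI lower on average.

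*Ddit4*, which is induced by stress and acts through the TSC complex against mTOR, had an interaction of 1.63 (SE 0.69, unadjusted p = 0.0287, adjusted p = 0.651). Among libraries numbered 1 it had 28.6, 42.5 and 43.0 CPM in WT and 15.9, 18.6 and 17.2 in KI, with every KI library lower. Among libraries numbered 2 it had 25.1, 29.8 and 19.6 CPM in WT and 29.9, 24.4 and 51.2 in KI, with overlap. The next 4 genes had unadjusted p-values above 0.05. *Gsk3a* had 32.8, 21.2 and 35.8 CPM in WT and 14.0, 23.6 and 8.93 in KI among libraries numbered 1, and 10.7, 15.7 and 10.6 in WT and 32.4, 13.6 and 19.4 in KI among those numbered 2. Its genotype difference thus had opposite signs, -0.95 and 0.79, with overlap in both. *Sesn3* had 61.4, 34.2 and 55.5 CPM in WT and 59.7, 37.2 and 117 in KI among libraries numbered 1, and 80.9, 59.6 and 89.1 in WT and 63.6, 25.3 and 51.9 in KI among those numbered 2. Its genotype differences were 0.49 and -0.73, and KI 1-3 held the high value. *Tsc2* had 44.0, 40.1 and 32.2 CPM in WT and 48.9, 25.4 and 133 in KI among libraries numbered 1, and 35.8, 42.2 and 40.8 in WT and 23.7, 35.6 and 26.3 in KI among those numbered 2. KI 1-3 again stood apart in *Tsc2*, whose exons overlap those of *Pkd1* on the opposite strand, so that reads of these genes could not be told apart if strand was not used. *Inpp4a* was higher in KI within both numbers, with 40.5, 41.3 and 21.5 CPM in WT and 61.6, 82.4 and 39.2 in KI among libraries numbered 1, and 15.7, 26.4 and 15.9 in WT and 67.3, 71.1 and 69.9 in KI among those numbered 2.

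A score, the mean log2 CPM of the 31 tested genes in each library, was 5.25 ± 0.12 in WT and 5.21 ± 0.09 in KI (SD, n = 6 each), a difference of -0.05. The genotypes overlapped almost fully. By first number the score was 5.15 ± 0.05 in libraries numbered 1 and 5.31 ± 0.07 in those numbered 2, a difference of 0.17, and the ranges touched at 5.24 (WT 1-3) and 5.23 (WT 2-3). By role, the largest genotype difference was that of the 3 tested regulatory genes, 4.16 ± 0.35 in WT and 3.76 ± 0.46 in KI. It lay mostly in *Pik3r5*, a gene with few counts. The log2 fold changes in edgeR were -1.27 for *Pik3r5*, -0.23 for *Pik3r1* and 0.07 for *Pik3r2*. The restraint genes had 4.70 ± 0.32 in WT and 4.92 ± 0.42 in KI. By first number, the differences (numbered 2 minus numbered 1) were 0.41 for the regulatory, 0.34 for the restraint, 0.33 for the upstream mTOR, 0.13 for the catalytic and 0.05 for the PDK1, AKT and GSK3 genes. They were -0.17 for the mTOR complex genes, -0.14 for the mTOR complex 1 targets and -0.01 for the forkhead genes. The scores are descriptions with no test.

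**Figure D5:**
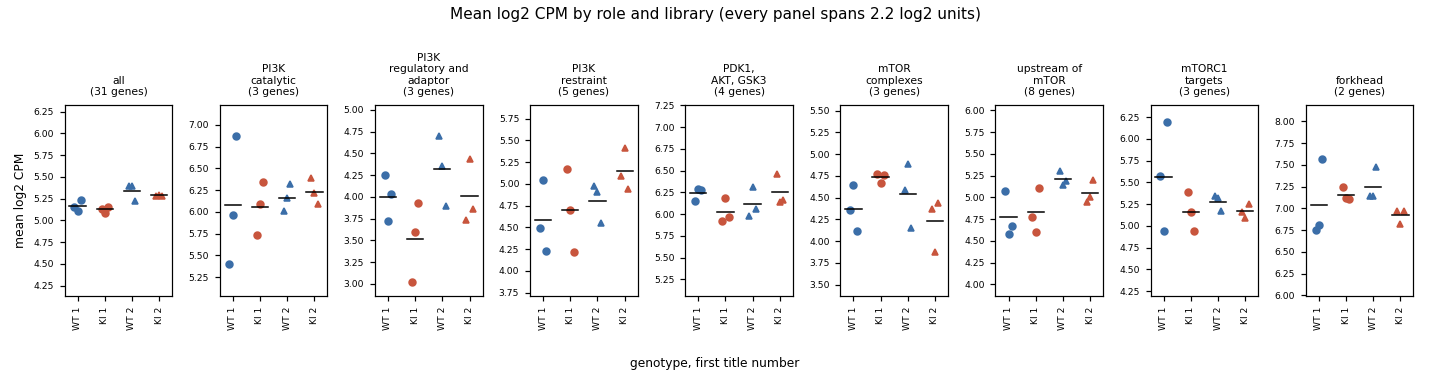
Mean log2 CPM per library over all 31 tested genes and over each role, by genotype and first title number, with lines at the mean of each 3 libraries; every panel spans the same log2 range. The score over all genes is 0.17 higher in libraries numbered 2, and the regulatory genes show the largest genotype difference by role, which lies mostly in *Pik3r5*.

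Further genes of the pathway were counted from lists. Of 28 other genes of PI3K signalling and phosphoinositide turnover, 14 were tested and 0 passed for genotype. In edgeR 1 had an unadjusted p under 0.05 (7.14%, against 5.4% of all tested genes). For the first number 0 passed, against 16% of all tested genes. Of 58 other AKT, mTOR and FOXO pathway genes, 38 were tested and 0 passed for genotype. An unadjusted p under 0.05 in edgeR was reached by 3 of them (7.89%, against 5.4% of all tested genes). In libraries numbered 2, 4 were higher (10.5%, against 8.47% of all tested genes) and 2 lower (5.26%, against 7.54%). The higher genes included *Eif4e*, the cap-binding protein that 4E-BPs sequester, at 1.28 (SE 0.32, adjusted p = 0.00923). Also higher was *Ppp2ca*, the catalytic subunit of the phosphatase PP2A, at 1.05 (SE 0.22, adjusted p = 0.00273). *Akt1s1*, which encodes the AKT substrate PRAS40, was lower at -1.67 (SE 0.51, adjusted p = 0.0278). The median log2 fold change of that list was 0.03 for genotype and -0.07 for the first number.

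Of 27 genes known as FOXO targets, 24 were tested and 0 passed for genotype, with 6 at an unadjusted p under 0.05 in edgeR (25%, where 5.4% of all tested genes had one) and a median log2 fold change of 0.01. Among those 6, *Btg1* (-0.71, SE 0.21) and *Cdkn1b* (-1.65, SE 0.66) were below 0 and *Txnip* (0.56, SE 0.21) and *Id3* (0.51, SE 0.19) above it; these were chosen after their values were seen. *Il7r*, the interleukin 7 receptor and also below 0, had a median of 25.3 CPM in WT and 8.75 in KI, at -1.21 (SE 0.55, adjusted p = 0.917). *Klf2*, *S1pr1* and *Ccr7*, which guide T cell egress and recirculation, had log2 fold changes of 0.10, -0.27 and 0.30, none past the test. By first number 4 targets were higher in libraries numbered 2 (16.7%, against 8.47% of all tested genes) and 2 were lower (8.33%, against 7.54%). They included *Ccng2* at 1.66 (SE 0.38, adjusted p = 0.00519) and *Socs3*, a cytokine signalling inhibitor, at -2.43 (SE 0.36, adjusted p = 0.000119).

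Of 28 genes known to rise with mTOR complex 1 activity, 20 were tested and 0 passed for genotype, with a median of 0.09. In edgeR 3 of the 20 had an unadjusted p under 0.05 (15%, against 5.4% of all tested genes). By first number 1 was higher in libraries numbered 2 (5%, against 8.47% of all tested genes). It was *Hif1a*, a transcription factor of glycolysis, at 1.63 (SE 0.26, adjusted p = 0.000252). Another 3 were lower (15%, against 7.54% of all tested genes). These were the glycolytic enzyme gene *Aldoa* at -1.24 (SE 0.17), the glutamine transporter gene *Slc1a5* at -0.74 (SE 0.17) and the amino acid response factor *Atf4* at -0.56 (SE 0.18). The median over the list was 0.02, with 10 genes above and 10 below 0.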

How the data were processed

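The authors deposited raw read counts per gene symbol and, in another table, FPKM values for 12 libraries. Per the submitters' processing notes, CASAVA, TopHat2, Cufflinks, HTSeq and DESeq2 were used with the mm9 build; versions, annotation, filters and strand use are not given in the sources used here. Reads aligned to several places were set aside, per the file's summary entries, and those entries were left out of library sizes. The members and gene lists were chosen with earlier results of these data known. Genotype and numbers come from the labels.

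Counts were tested in R 4.3.3 with edgeR 4.0.16 (filterByExpr by genotype, TMM, quasi-likelihood F test, Benjamini-Hochberg over all 7542 tested genes, threshold 0.05): genotype alone, first number beside genotype, and their interaction. Genes below the filter were tested by exact permutation of log2(CPM + 1). Scores are mean log2 CPM with a prior count of 2. FPKM served for levels between genes. Values by library are given for members past a threshold and, where fewer than 6 passed in a comparison (or in genotype with the first number as a block), for the 6 with the smallest p. No library was dropped; over 30 same-genotype pairs the chi-square per degree of freedom was 8.58 to 37.0, so none agreed within sampling noise. Alternatives included limma 3.58.1, DESeq2 1.42.0, other scalings and filters, FPKM with pseudocounts, blocks and single libraries left out. The code was tested on simulated data. Coordinates are from GENCODE on NCBIM37, the same assembly as mm9, matched by symbol, and promoters from RefSeq.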

Additional observations from a re-analysis of the deposited data

How the results depend on the processing

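No pathway gene differed between KI and WT under any alternative run, and no tested direction of a gene given in full reversed. Counts over all genes for KI against WT, 2 in the main analysis, were 4 without a filter, 0 by limma on log2(FPKM + 1), 0 on log2(FPKM + 0.1), 1 by limma-voom, 11 by DESeq2, 1 in libraries numbered 2 alone and 0 to 2 with single libraries left out. A replicate block on the first number gave 4 genes, still 0 of the 31 pathway genes (*Inpp4a*: 1.32, adjusted p = 0.171 by edgeR), of which 4 instead of 2 had an unadjusted p under 0.05 (12.9%, against 8.33% of all genes), with *Prkaa1* (adjusted p = 0.418) and *Eif4ebp2* (0.535) joining *Inpp4a* and *Pik3r5*. A replicate block on both numbers gave 3. Deviations of libraries with the same first number correlated at a mean of 0.17, over 0.1 in 15 of 18 pairs, against -0.17 between first numbers, and each library correlated best with its own first number in 12 of 12 cases. Those with both numbers alike had 0.16, over 0.1 in 5 of 6, but -0.13 once the first-number means were removed. Pairing was accepted only if every pair was over 0.1, which failed for both, so the block stayed an alternative. By first number, 7 pathway genes became 3 by limma on log2(FPKM + 1) and 3 on log2(FPKM + 0.1). Each was 9.38% of the 32 tested there, against 9.07% and 8.34% of all genes. The count was 1 in WT alone (3.23%, against 5.01%), 0 in KI alone (against 4.66%) and 4 to 7 with single libraries left out. The all-gene count of 1208 became 782 on log2(FPKM + 0.1), 381 in WT alone, 359 in KI alone and 751 (without KI 2-2) to 1252 with single libraries left out; the share higher in libraries numbered 2, 52.9%, was 39.9% in WT alone. The interaction count of 0 was 7 by DESeq2 and 0 to 24 with single libraries left out. Depth limits *Pik3r5*, *Foxo3*, *Pik3ap1*, *Pik3cb* and *Mlst8* most.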

Other observations

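Genes of PD-1 and T cell receptor signalling, which act on PI3K, were counted as a further list of 15, of which 14 were tested. None passed for KI against WT in edgeR, and 1 had an unadjusted p under 0.05 (7.14%, against 5.4% of all tested genes). It was *Pdcd1*, with a log2 fold change of -2.05 (SE 0.42, adjusted p = 0.231). The list's median log2 fold change was 0.05, beside 0.02 over all tested genes. By first number 5 were higher in libraries numbered 2 (35.7%, against 8.47% of all tested genes) and 4 were lower (28.6%, against 7.54%). The higher genes included the costimulatory receptors *Icos* at 0.76 (SE 0.21, adjusted p = 0.0158) and *Cd28* at 0.50 (SE 0.15, adjusted p = 0.0237). Also higher was *Rasgrp1*, the activator of RAS below the T cell receptor, at 1.77 (SE 0.27, adjusted p = 0.000163). Lower genes included *Pdcd1* at -1.56 (SE 0.22, adjusted p = 8.38e-05), *Cd247*, the zeta chain of the receptor, at -1.24 (SE 0.14, adjusted p = 2.27e-05), and the phosphatase gene *Ptpn6* at -0.81 (SE 0.15, adjusted p = 0.000932).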
